A study of Mus musculus with 16 samples.

Results

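The HLHS effect was compared between the left and the right side of the heart within litters. All 16 libraries of the series entered, the left and the right ventricle of each of 8 mouse embryos. HLHS, hypoplastic left heart syndrome, is a congenital malformation in which the left side of the heart is too small. For every embryo the left-minus-right difference of each gene was taken on the log2 scale, and the differences of the 3 HLHS embryos were set against those of the 5 control littermates. Each litter had its own left-minus-right term. A positive value means that HLHS raised the gene more, or lowered it less, on the left than on the right.

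All embryos had a C57BL/6 background per the labels, which give a phenotype (HLHS or control) and no genotype or allele for either group. Litters were collected at E13.5 (E for embryonic day, 1 HLHS and 1 control embryo), E14.5 (1 HLHS and 2 control embryos) and E17.5 (1 HLHS and 2 control embryos). Litter and stage are therefore the same variable, and each stage rests on 1 HLHS embryo. HLHS replicates 1, 2 and 3 are the embryos of E13.5, E14.5 and E17.5; control replicate 1 is from E13.5, 2 and 3 are from E14.5, and 4 and 5 are from E17.5.

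Before birth both ventricles pump side by side, and shunts let blood that would pass through the lungs or the left heart take another way. When the left ventricle and its valves stay small, the right ventricle carries the circulation of the body. The ventricle wall holds contracting heart muscle cells, the inner endocardium, the outer epicardium, fibroblasts and, near the valves, cushion mesenchyme that lays down a cartilage-like matrix, so a gene can differ between the sides in any of these cells.

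Libraries held 17081273 to 28648645 counts. Heart muscle and ventricle markers were high in every library, with at least 2213 CPM (read counts scaled to the library's total) of Tnnt2, cardiac troponin T, and 1655 CPM of Myl2, the ventricular myosin light chain. Hand1, a transcription factor of the left ventricle, was higher on the left in all 8 embryos, by 2.14 to 2.75 on the log2 scale. Read from Xist and Ddx3y, sex was the same in left and right libraries of 8 of 8 embryos. HLHS replicates 1 and 2 and control replicates 2 and 5 were female, and the others were male. The right ventricle library of control replicate 4 stood apart: with Ddx3y at 73.7 CPM it also held 33.3 CPM of Xist, against 1.20 CPM in the left ventricle of that embryo. Its part in the results was not tested beyond leaving the embryo out, and the values without it are given below.

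In the test of left minus right, 158 of 16209 genes (0.975%) passed an adjusted p of 0.05 (edgeR's quasi-likelihood test, Benjamini-Hochberg). Of these, 81 (0.500%) were higher and 77 (0.475%) lower on the left compared with the right. At least 2-fold differences were found for 25 and 24 of them. The sign was the same in 3 of 3 litters for all 158. Genes past a test within litters tend to this by construction, and the share over all genes was not counted. The genes that rose in the left ventricle relative to the right included muscle and stress genes such as Xirp2 and Des, hypoxia genes such as Bnip3, and embryonic globins; those that fell included genes of fibroblasts, matrix and cushion mesenchyme, and Bmp10, Mylk4, Ckmt2 and Myh6 of heart muscle. Over all genes the median was −0.01. An unadjusted p under 0.05 was reached by 940 genes (5.80%) for a higher and by 1002 (6.18%) for a lower value on the left.

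The estimated HLHS effect was positive on the left and negative on the right in 45 of these genes, and the reverse in 51; over the 15386 genes tested in all 3 comparisons, 26.9% had opposite signs. Genes picked for a difference between the sides tend to opposite signs by construction, and only 7 had a call of opposite sign on each side. In 53 the effect had the same sign and was larger on the left. In 8 it had the same sign and was larger on the right, and 1 was not tested on both sides. That split was not computed over all genes, where more were called on the left (2085) than on the right (1062). By the size of the group means, the side difference was larger in HLHS than in control embryos in 137 of the 158 and smaller in 21. Where controls differ little between the sides, genes picked for a change tend to a larger difference in HLHS by construction. The share over all genes was not computed. In 104 of the 158 the values of HLHS and control embryos did not overlap, against 865 of all genes tested (5.34%); genes past a test differ by construction, so that share describes them only.

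The number of calls depended on the litter term and on single embryos. With 1 left-minus-right term in place of 1 per litter, 3 genes passed, namely Tmem26, Tppp and P4ha3, and without the embryo as a block 24 did. Without control replicate 4 the count was 36, without control replicates 1 or 3 it was 60 and 85, without HLHS replicate 1 it was 75, and without HLHS replicate 3 it was 262. Sex added as a term for the side difference left 98. All 158 kept their direction in each of these fits, which share most or all libraries with the main fit. Of them, 23 were called in every fit that left out 1 embryo.

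**Figure D1:**
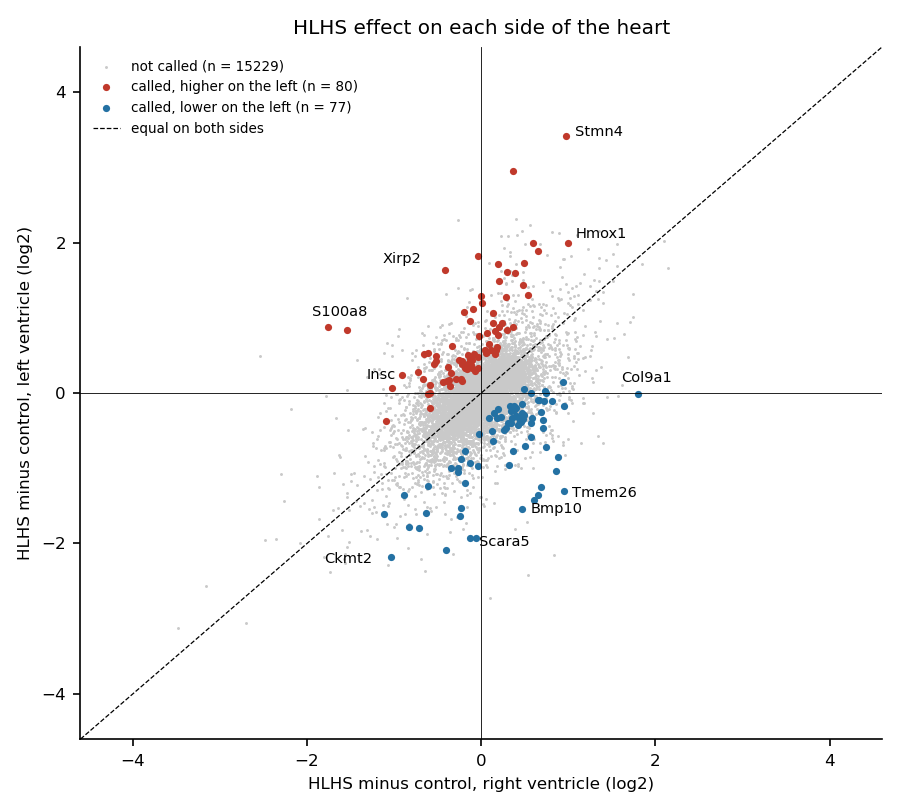
HLHS minus control in the right ventricle (horizontal axis, log2) against the left ventricle (vertical axis, log2) for the 15386 genes tested in all 3 comparisons, each point 1 gene. Colour marks genes called in the test of left minus right, 80 higher and 77 lower on the left; the dashed line marks equal effects, and the called genes lie away from it, many in the quadrants where the sides have opposite sign.

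Tmem26, Tppp and P4ha3 passed in all 18 alternative analyses. Tmem26 encodes a membrane protein. Its left-minus-right difference was −2.19, −2.59 and −1.98 in HLHS replicates 1 to 3 and 0.65, −0.79, −0.06, 0.13 and −0.17 in control replicates 1 to 5. Every HLHS embryo lay below every control embryo. In the left ventricle it was at 2.80, 2.30 and 1.95 CPM in HLHS and between 5.11 and 6.23 CPM in controls, while in the right ventricle it was at 13.1, 14.2 and 7.93 CPM in HLHS and between 3.93 and 10.3 CPM in controls. HLHS was thus lower on the left without overlap, and higher on the right with overlap at E17.5 against a control of E14.5. The HLHS effect was −1.30 ± 0.13 (log2 ± SE, 3 HLHS and 5 control libraries) on the left and 0.95 ± 0.23 on the right, and the difference of −2.31 ± 0.23, a 4.95-fold change, had an adjusted p of 0.00488 in edgeR's quasi-likelihood test.

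Tppp encodes a protein that binds and bundles microtubules. Its difference was −1.07, −1.51 and −1.27 in the HLHS embryos and −0.25, −0.28, −0.38, −0.21 and −0.39 in control replicates 1 to 5. The groups did not overlap, and the controls lay close together. The left ventricle of HLHS embryos held 9.99, 7.24 and 14.2 CPM against 19.6 to 29.6 CPM in controls, and the right ventricle 21.1, 20.7 and 34.5 CPM against 23.9 to 35.4 CPM. Tppp fell by 1.19 ± 0.11 on the left, its value on the right was −0.19 ± 0.09 (adjusted p = 0.209, edgeR's quasi-likelihood test), and the difference was −1.01 ± 0.10 (adjusted p = 0.00488).

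P4ha3 encodes a subunit of the prolyl hydroxylase that modifies collagen. Its difference was −0.99, −0.85 and −1.01 in HLHS embryos and −0.09, −0.36, −0.09, 0.15 and −0.10 in control replicates 1 to 5. All HLHS values were lower. It was at 22.7, 22.5 and 17.1 CPM in the HLHS left ventricle against 25.3 to 29.6 CPM in controls, and at 44.9, 40.6 and 34.4 CPM in the HLHS right ventricle against 23.9 to 32.4 CPM. Neither side overlapped, in opposite directions. The HLHS effect was −0.39 ± 0.09 on the left and 0.45 ± 0.08 on the right.

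**Figure D2:**
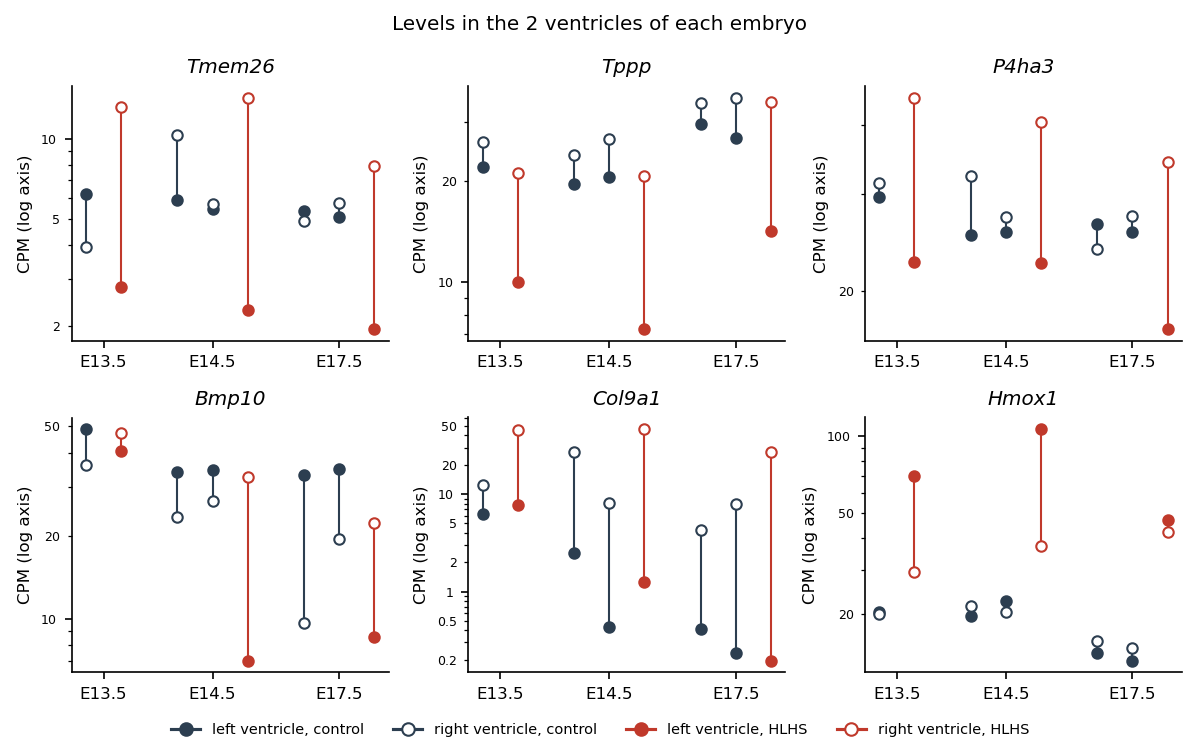
CPM on a log axis in the left (filled) and right (open) ventricle of each embryo, joined by a line, for 6 genes; controls are dark and HLHS embryos red, in the order of stage. For Tmem26, Tppp and P4ha3 the left ventricle of each HLHS embryo lies below its right ventricle by more than in any control; Hmox1 at E17.5 is nearly equal on both sides.

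Opposite responses, with a call on each side and opposite sign, were found for 7 genes (0.0455% of 15386). Thbs3, a thrombospondin of the matrix, fell on the left (−0.77 ± 0.11) and rose on the right (0.36 ± 0.09), as did Tmem26 and P4ha3. Mical3, which acts on actin filaments, rose on the left (0.43 ± 0.07) and fell on the right (−0.26 ± 0.06). Gpc1, a heparan sulfate proteoglycan of the cell surface (0.35 ± 0.10 and −0.39 ± 0.07), Tceal7 (0.49 ± 0.09 and −0.52 ± 0.13) and the granulocyte gene S100a8 (0.88 ± 0.21 and −1.76 ± 0.44) also rose on the left and fell on the right. All 7 also passed the test of left minus right, which opposite calls in the same libraries make likely by construction. Their values ran from −2.31 for Tmem26 to 2.69 ± 0.37 for S100a8. S100a8 was scarce, at 0.297 to 6.65 CPM in the HLHS left ventricle and 0.0536 to 0.903 CPM in the HLHS right ventricle, and lost its call without control replicate 4; without HLHS replicate 3 its value was 3.39. The count of opposite genes ran from 0, without control replicate 3, to 12, without control replicate 2.

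A response was counted as left only where the gene passed the adjusted threshold on the left, had an unadjusted p of at least 0.05 on the right, and an unadjusted p under 0.05 for left minus right. In all, 424 of 15386 genes (2.76%) met this, 243 higher (1.58%) and 181 lower (1.18%) in HLHS, and 55 of them also passed the adjusted test of left minus right. Of the 817 genes called on the left with a right p of at least 0.05, only 51.9% had an unadjusted p under 0.05 for the difference, so a call on one side alone was often no evidence of a difference. As background to these counts, 2085 of 15579 genes (13.4%) passed on the left, 6.43% higher and 6.96% lower in HLHS, and 1062 of 15758 (6.74%) on the right, 3.64% higher and 3.10% lower. The count of left-only genes was 254 without control replicate 2, 165 without HLHS replicate 2 and 679 without HLHS replicate 3.

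Among the left-only genes that also passed the adjusted test were the growth factor gene Bmp2, a ligand of the bone morphogenetic protein family, and the keratin gene Krt80, both higher. Bmp2 was at 7.99, 9.91 and 7.39 CPM in the HLHS left ventricle, against 4.83, 3.70, 3.25, 1.66 and 1.93 CPM in control replicates 1 to 5, without overlap. In the right ventricle the values overlapped, at 9.86 to 16.3 CPM in HLHS and 7.11 to 16.1 CPM in controls. The left-minus-right difference of Bmp2 was −2.74 to −1.11 in controls and −0.30, −0.32 and −1.14 in HLHS embryos, so every embryo had less on the left, and the HLHS embryo of E17.5 lay within the range of controls. Krt80 had an HLHS effect of 1.07 ± 0.10 on the left and −0.19 ± 0.14 on the right. Scara5, a receptor for ferritin, and Rxfp1, the receptor of relaxin, were left-only genes that fell.

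Scara5 was at 1.40, 0.878 and 5.91 CPM in the HLHS left ventricle and at 2.52, 6.32, 6.29, 24.8 and 19.2 CPM in control replicates 1 to 5. Each HLHS library was below the controls of its litter. On the right, 2.57, 7.96 and 9.66 CPM in HLHS stood against 2.76, 6.45, 5.89, 14.77 and 14.99 CPM, which overlapped. The left-minus-right value was −1.75 ± 0.33 for Scara5 (−1.15 without HLHS replicate 2) and −1.31 ± 0.24 for Rxfp1. Of these 4 genes, Krt80 kept its call in 6 of the 8 fits that each left out 1 embryo, Scara5 in 5, Rxfp1 in 4 and Bmp2 in 2; Krt80 lost it without control replicates 1 and 4, as did the other 3 and more.

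Right-only responses, by the same rule with the sides exchanged, numbered 191 (1.24%), 128 higher (0.832%) and 63 lower (0.409%) in HLHS, and 17 passed the adjusted test of left minus right. Col9a1, a chain of the cartilage collagen type IX, was at 46.0, 46.5 and 27.1 CPM in the HLHS right ventricle and at 12.3, 26.9, 8.16, 4.31 and 7.95 CPM in control replicates 1 to 5. HLHS was above all controls. On the left it was at 7.82, 1.25 and 0.195 CPM in HLHS and 6.28, 2.50, 0.435, 0.415 and 0.236 CPM in controls, with overlap. Per embryo, left minus right was −2.54, −5.12 and −6.62 in HLHS replicates 1 to 3. In control replicates 1 to 5 it was −0.96, −3.39, −3.99, −3.14 and −4.66, with overlap. The HLHS effect on Col9a1 was 1.80 ± 0.32 on the right and −0.01 ± 0.46 on the left. The difference was −1.72 ± 0.28 (adjusted p = 0.0214, edgeR's quasi-likelihood test), a call lost without control replicate 1 or HLHS replicate 1.

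Fbln2, a fibulin of elastic matrix and cushion tissue, rose on the right (0.81 ± 0.17, left −0.10 ± 0.09). Genes that fell on the right alone included Insc, which orients the mitotic spindle, the iroquois factor gene Irx1 and Adamtsl5 of the microfibrils. Insc was at 3.86, 4.09 and 6.05 CPM in the HLHS right ventricle and 7.60 to 12.6 CPM in controls, without overlap, while the left ventricle held 6.80 to 7.99 CPM in HLHS and 5.10 to 8.77 CPM in controls. Irx1 had an effect of −0.67 ± 0.15 on the right and 0.18 ± 0.09 on the left, and Adamtsl5 of −0.91 ± 0.14 and 0.24 ± 0.14. Irx1 kept its call for left minus right in 4 of the 8 fits without 1 embryo, Fbln2 and Insc in 3 and Adamtsl5 in 2; each lost it without control replicates 1 and 4 and without HLHS replicates 1 and 2. The count of right-only genes was 25 without control replicate 1 or HLHS replicate 1, 65 and 59 without control replicates 3 and 5, 52 and 41 without HLHS replicates 2 and 3, and 330 without control replicate 2.

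**Figure D3:**
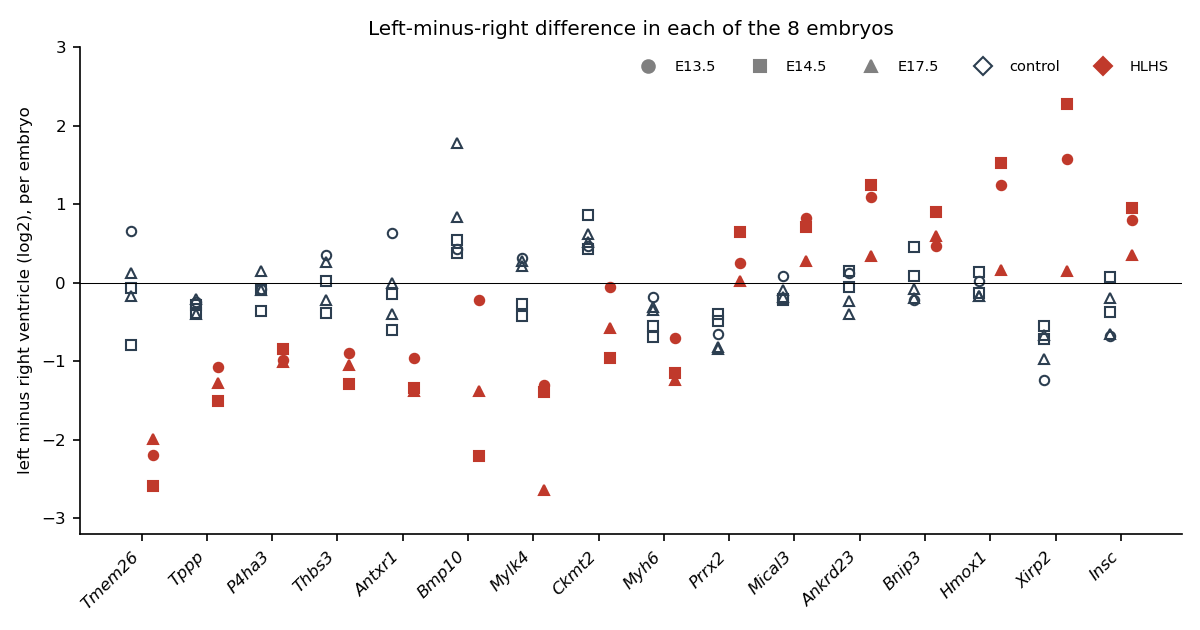
Left-minus-right difference (log2) in each embryo of 16 genes chosen among those without overlap, with symbols for stage, controls open and HLHS filled. For every gene drawn, the HLHS values lie outside the range of the 5 controls, from Mylk4 at −2.64 to Xirp2 at 2.27.

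Heart muscle genes differed in both directions. Of 31 sarcomere genes tested, 17 had an unadjusted p under 0.05 for a higher and 2 for a lower value on the left relative to the right, against 5.80% and 6.18% of all genes; 4 and 1 passed the adjusted threshold. The list's median was 0.22 for left minus right, with −0.01 on the left and −0.25 on the right. Des, the muscle intermediate filament desmin (0.53 ± 0.09), Myoz2, a Z-disc protein (0.56 ± 0.10), Tcap, which caps titin (0.59 ± 0.11), and Xirp2, an actin-binding protein of the intercalated disc (1.93 ± 0.32), were higher. Xirp2 differed by 1.58, 2.27 and 0.14 in HLHS embryos and by −1.23, −0.72, −0.56, −0.97 and −0.67 in control replicates 1 to 5. All HLHS values were above all controls, and the embryo of E17.5 was nearest to them. Without HLHS replicate 3 the value of Xirp2 was 2.92. Calls were kept in 4 of the 8 fits without 1 embryo for Des and Myoz2 and in 3 for Tcap and Xirp2, and each was lost without control replicates 1 and 4 and HLHS replicate 1. Without control replicate 4, 13 sarcomere genes of 30 were higher and 2 lower at that unadjusted p.

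Myh6, the fast heavy chain of cardiac myosin, was the 1 sarcomere gene that passed the adjusted test as lower. Its difference was −0.70, −1.14 and −1.23 in HLHS embryos and −0.18, −0.54, −0.70, −0.30 and −0.35 in control replicates 1 to 5. The groups did not overlap, but the HLHS embryo of E13.5 and control replicate 3 were nearly equal. The effect was −0.995 ± 0.22 on the left (called) and −0.35 ± 0.16 on the right (adjusted p = 0.209, edgeR's quasi-likelihood test), and left minus right was −0.66 ± 0.10. For Myh7, the slow heavy chain, left minus right was 0.25 ± 0.10 (adjusted p = 0.337, edgeR's quasi-likelihood test). The calls of Myh6 were lost without control replicate 1 or 4.

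Other muscle genes gave larger differences. Mylk4, a myosin light chain kinase, was at 2.04, 1.46 and 4.75 CPM in the HLHS left ventricle against 3.17, 3.22, 3.18, 21.9 and 16.4 CPM in control replicates 1 to 5. Each was below the controls of its litter. On the right, HLHS stood at 5.15, 3.98 and 29.9 CPM against 2.52, 4.35, 3.86, 18.9 and 13.6 CPM. Left minus right was −2.17 ± 0.29. Ankrd23, a stress-responsive titin-binding protein, was higher on the left relative to the right by 0.94 ± 0.11 (left 0.63 ± 0.12, right −0.33 ± 0.12), and Cnn1, calponin of smooth and embryonic heart muscle, by 1.22 ± 0.15 (1.60 ± 0.13 and 0.39 ± 0.10). These 3 genes kept their calls in all 8 fits without 1 embryo, but the value of Mylk4 was −1.32 without HLHS replicate 3.

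Ckmt2, which encodes the creatine kinase of muscle mitochondria, fell on both sides and more on the left. It was at 8.88, 5.90 and 33.8 CPM in the HLHS left ventricle against 24.8, 28.5, 31.1, 199.8 and 175.1 CPM in control replicates 1 to 5, and at 9.22, 11.6 and 50.3 CPM against 17.9, 15.6, 23.1, 140.0 and 113.4 CPM on the right. Controls had more on the left in 5 of 5 embryos, and HLHS embryos had less on the left in 3 of 3. The effects were −2.18 ± 0.16 and −1.04 ± 0.16, and left minus right was −1.15 ± 0.16. Perm1, a regulator of muscle energy genes, also fell on both sides (−1.35 ± 0.07 and −0.88 ± 0.08), with a difference of −0.46 ± 0.07 that was lost without control replicates 1 or 4 or HLHS replicate 1.

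In the energy lists, medians of left minus right were near 0 and changed sign between litters. Of 74 nuclear genes of oxidative phosphorylation, 1 had an unadjusted p under 0.05 for left minus right and none passed the adjusted test in edgeR, with a median of −0.02, and −0.10, −0.15 and 0.17 by litter. On the left 41 were called as lower and on the right 4, with medians of −0.23 and −0.20. Over all genes tested on each side, 6.96% on the left and 3.10% on the right were called as lower. Of 22 citric acid cycle genes, 20 were called as lower on the left and 0 on the right, with medians of −0.28 and −0.20. For left minus right, 1 had an unadjusted p under 0.05. The median of left minus right was −0.09, and −0.13, −0.18 and 0.03 by litter, with 21 of 22 negative. Of 34 fatty acid oxidation genes, 18 were called as lower on the left and 11 on the right, with medians of −0.36 and −0.28. For left minus right, 1 and 4 were higher and lower at the unadjusted p, with Perm1 the 1 that passed after adjustment. The median of left minus right was −0.10, and −0.04, −0.30 and 0.02 by litter. The medians of these 3 lists stayed between −0.18 and 0.05 in every alternative.

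Stress genes were higher on the left relative to the right. Of 16 in the list, 8 were higher and 0 lower at the unadjusted p, 4 passed the adjusted test, and the median was 0.23 (left 0.50, right 0.08). Besides Xirp2 they included Ccn2, a matricellular growth factor that responds to stretch (0.51 ± 0.08), and Rcan1, an inhibitor of calcineurin (0.47 ± 0.09). By litter the list median was 0.22, 0.50 and 0.05 at E13.5, E14.5 and E17.5. Calls were kept in 5 of the 8 fits without 1 embryo for Ccn2 and in 3 for Rcan1, and each was lost without control replicates 1 and 4 and HLHS replicate 1. The natriuretic peptide genes Nppa (0.07 ± 0.18) and Nppb (0.19 ± 0.15) did not pass for left minus right (edgeR's quasi-likelihood test, adjusted p = 0.932 and 0.727).

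Targets of the hypoxia-inducible factor were mostly higher on the left relative to the right. Of 27 tested, 19 were higher and 1 lower at the unadjusted p, and Bnip3 and Hmox1 passed the adjusted test. The median was 0.26, with 0.24 on the left and 0.00 on the right, and by litter 0.24, 0.30 and 0.24. Without control replicate 4, 13 were higher and 0 lower, with a median of 0.24. Bnip3, a receptor that marks mitochondria for removal, was at 282, 431 and 343 CPM in the HLHS left ventricle against 170.0 to 213 CPM in controls, and at 204, 230.3 and 227 CPM in the HLHS right ventricle against 144 to 208 CPM. The left ventricles did not overlap and the right ones did. Left minus right was 0.68 ± 0.09.

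Hmox1, the heme-degrading heme oxygenase, was at 69.8, 107 and 47.1 CPM in the HLHS left ventricle against 13.1 to 22.6 CPM in controls, and at 29.4, 37.2 and 42.0 CPM against 14.8 to 21.6 CPM on the right. HLHS was above controls on both sides. The side difference was 1.25 and 1.52 in HLHS replicates 1 and 2 but 0.17 at E17.5, close to the highest control value of 0.14. Its left-minus-right value of 1.02 ± 0.18 lost its call without any of control replicates 1, 3 and 4 and HLHS replicates 1 and 2. Higd1a, a mitochondrial protein (0.38 ± 0.08, adjusted p = 0.0519), Egln1, the oxygen-sensing prolyl hydroxylase (0.41 ± 0.10, adjusted p = 0.0769), and Pdk1, which holds back pyruvate oxidation (0.36 ± 0.09, adjusted p = 0.0901), missed the threshold in edgeR's quasi-likelihood test. Lox, a matrix cross-linking enzyme in the list, was the 1 member lower at the unadjusted p (−0.59 ± 0.24).

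The hypoxia-inducible factor binds a core of ACGTG. Upstream sequences of hypoxia targets are shown because these genes moved together, here the 3 members with the smallest p for left minus right among those holding the core. They are the 250 bases before the start of Bnip3 (chr7:138909507-138909756, minus strand), Egln1 (chr8:124949255-124949504, minus strand) and P4ha2, a collagen prolyl hydroxylase (chr11:54100674-54100923, plus strand; 0.42 on the log2 scale, not called), from RefSeq's table for GRCm38.p6, 5′ to 3′ in the direction of the gene, with ACGTG on either strand (ACGTG or CACGT) in capitals.
Bnip3: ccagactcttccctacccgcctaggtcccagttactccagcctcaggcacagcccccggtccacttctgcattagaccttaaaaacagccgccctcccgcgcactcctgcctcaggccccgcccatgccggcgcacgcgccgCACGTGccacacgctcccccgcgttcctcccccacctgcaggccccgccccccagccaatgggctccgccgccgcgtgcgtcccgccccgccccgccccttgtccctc
Egln1: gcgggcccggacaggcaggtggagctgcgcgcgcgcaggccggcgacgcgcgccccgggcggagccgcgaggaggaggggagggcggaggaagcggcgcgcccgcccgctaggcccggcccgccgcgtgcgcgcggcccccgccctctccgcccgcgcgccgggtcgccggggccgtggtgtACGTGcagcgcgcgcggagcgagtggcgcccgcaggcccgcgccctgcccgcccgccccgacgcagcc
P4ha2: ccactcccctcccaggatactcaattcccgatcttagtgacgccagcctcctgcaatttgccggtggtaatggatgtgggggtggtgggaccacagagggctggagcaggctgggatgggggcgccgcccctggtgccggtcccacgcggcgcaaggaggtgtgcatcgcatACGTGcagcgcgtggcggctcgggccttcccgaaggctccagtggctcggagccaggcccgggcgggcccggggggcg
The run of capitals in Bnip3 holds overlapping matches on both strands, and the first matched base is at position −108, −68 and −78 from the start in the 3 genes. Of the 22 hypoxia targets with an entry, 16 (72.7%) held the core in these 250 bases in any of their entries. Counted by gene in the same way, 18.5% of all 27025 genes with an entry held it, and 24.2% of the genes tested that had one. By single entry, it was in 16.6% of all 32851. Among called genes with an entry it was in 28.3% of those higher and in 14% of those lower on the left. A match describes the letters and is no evidence of binding, and many of these targets are known for such sites.

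**Figure D4:**
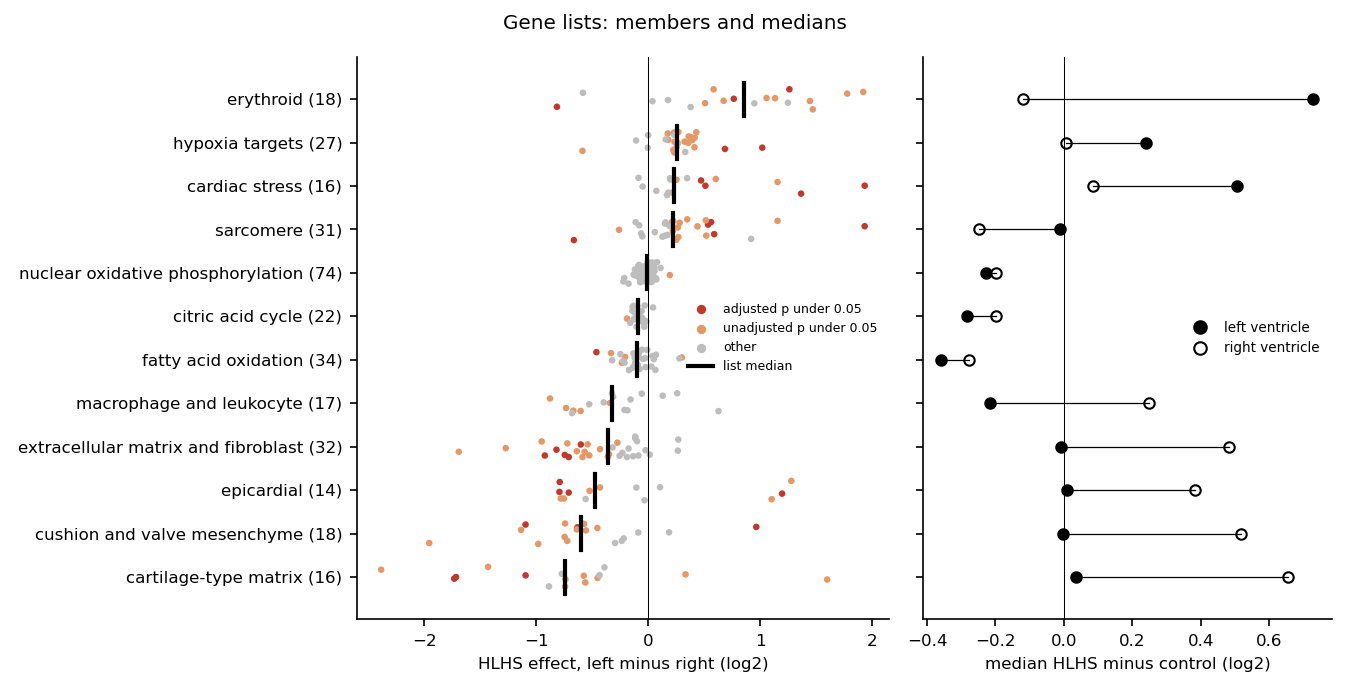
Left panel: HLHS effect, left minus right (log2), of each member of 12 gene lists, with the number tested in brackets, colour for the test and a bar at the median. Right panel: list medians of HLHS minus control in the left (filled) and right (open) ventricle; the matrix, cushion and cartilage lists are near 0 on the left and at 0.48 to 0.66 on the right, and the erythroid list is at 0.73 on the left.

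Many matrix and mesenchyme genes were lower on the left compared with the right. Of 32 matrix and fibroblast genes, 0 were higher and 18 lower at the unadjusted p, and 5 passed the adjusted test as lower. The median was −0.36, with −0.01 on the left, where 7 rose and 6 fell, and 0.48 on the right, where 7 rose and 0 fell. By litter the median of left minus right was −0.70, −0.12 and −0.42. Without control replicate 4, 0 were higher and 17 lower. In bulk tissue, more cells of a type and more RNA per cell cannot be told apart. The summed level of the list was 13472 to 14897 CPM in the HLHS right ventricle and 8012 to 12915 CPM in the control right ventricle, without overlap, and 9160 to 10784 CPM against 8972 to 10704 CPM on the left. Within embryos, the left-minus-right difference of this sum was −0.34, −0.56 and −0.59 on the log2 scale in HLHS and 0.36, −0.53, −0.14, −0.03 and −0.30 in control replicates 1 to 5, with overlap. The part of cell makeup in these values was not tested.

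Tcf21, a transcription factor of fibroblast and epicardial lineages, differed by −0.18, −0.64 and −0.52 in HLHS embryos and by 0.73, 0.07, 0.27, 0.03 and −0.10 in control replicates 1 to 5, without overlap. It fell on the left (−0.40 ± 0.11), its value on the right was 0.31 ± 0.12, and left minus right was −0.71 ± 0.10. Dcn, the proteoglycan decorin (−0.74 ± 0.11), Pdgfra, a receptor that marks fibroblasts (−0.82 ± 0.14), and Col3a1, a fibrillar collagen (−0.60 ± 0.12), had lower values as well. Antxr1, a collagen receptor, gave −1.21 ± 0.14 (left −0.70 ± 0.07, right 0.50 ± 0.15), Itih5, which binds hyaluronan, −1.30 ± 0.15, and Sulf1, an extracellular sulfatase, −0.83 ± 0.10. The kinase gene Nrk gave −0.68 ± 0.07. Tcf21, Antxr1, Itih5, Sulf1 and Nrk kept their calls in all 8 fits without 1 embryo, whereas Col3a1 kept its call in 2. Dcn and Pdgfra lost theirs without control replicates 1 or 4 or HLHS replicate 1, and Pdgfra also without HLHS replicates 2 or 3.

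Of 16 cartilage-type matrix genes, 2 were higher and 10 lower at the unadjusted p, 3 passed as lower, and the median was −0.74 (left 0.03, right 0.66). Without control replicate 4 these counts were 1 and 8. Besides Col9a1 these were Matn4, a matrilin (−1.73 ± 0.29), and Sox9, the factor that drives cartilage and valve matrix (−1.09 ± 0.21). Sox9 was at 29.5, 25.6 and 26.5 CPM in the HLHS right ventricle, above the 12.1 to 23.5 CPM of controls, and at 9.99, 8.53 and 9.61 CPM in the HLHS left ventricle, where controls had 9.84 to 15.8 CPM. Neither side was called alone. Its call for left minus right was kept in 2 of the 8 fits without 1 embryo, those without control replicates 2 and 5; Matn4 lost its call without control replicate 4 or HLHS replicate 2.

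Of 18 cushion and valve mesenchyme genes, 1 was higher and 12 lower at the unadjusted p, both with and without control replicate 4, and 1 and 2 passed the adjusted test. The median was −0.60, with 0.00 on the left and 0.52 on the right. The paired homeobox genes Prrx1 and Prrx2 went opposite ways. Prrx1 differed by −1.36, −1.28 and −1.23 in HLHS embryos and by −0.53, −0.97, −0.66, −0.67 and −0.44 in control replicates 1 to 5, while Prrx2 differed by 0.25, 0.64 and 0.02 in HLHS and by −0.65, −0.40, −0.48, −0.82 and −0.85 in controls. Neither gene's groups overlapped. Left minus right was −0.63 ± 0.11 for Prrx1 and 0.96 ± 0.09 for Prrx2, which rose on both sides (1.44 ± 0.10 and 0.47 ± 0.09). Prrx2 kept its call in all 8 fits without 1 embryo, and Prrx1 in the 2 without control replicate 2 or HLHS replicate 2.

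The epicardial list was split, with a median of −0.48 for left minus right, and −0.80, −0.44 and 0.11 by litter. Of 14 genes, 3 were higher and 7 lower at the unadjusted p. The 3 were the keratins Krt18 (1.19 ± 0.22, called), Krt19 (1.10 ± 0.23) and Krt8 (1.28 ± 0.29), which other epithelial cells also make. Among those lower, Tcf21, Msln, the surface protein mesothelin (−0.79 ± 0.15), and Lrrn4 (−0.79 ± 0.15) passed, while Upk3b (−0.78 ± 0.22) and Bnc1 (−0.75 ± 0.24) did not. Krt18 was at 45.8, 62.4 and 8.48 CPM in the HLHS left ventricle, each above the controls of its litter, whose values were 12.5, 9.46, 9.94, 5.48 and 4.84 CPM. Summed over the list, the left-minus-right difference was 0.60, 0.42 and 0.02 in HLHS and 0.90, 0.22, 0.23, 0.12 and 0.12 in controls, with overlap. Krt18 kept its call in 2 of the 8 fits without 1 embryo (without control replicate 5 or HLHS replicate 3), Msln in 4 and Lrrn4 in 2.

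Of 17 macrophage and leukocyte genes, 0 were higher and 5 lower at the unadjusted p, and 0 passed the adjusted test in edgeR. The median was −0.32, with −0.22 on the left and 0.25 on the right. By litter it was −0.80, −0.40 and −0.03 at E13.5, E14.5 and E17.5. The granulocyte gene S100a8, which is not in this list, was called as higher on the left relative to the right (2.69). F13a1, a transglutaminase of resident macrophages, had −0.67 ± 0.15 (adjusted p = 0.0637, edgeR's quasi-likelihood test). The summed level of the list was 172 to 252 CPM in the HLHS left ventricle and 194 to 288 CPM in the right, and 198 to 327 CPM and 176 to 242 CPM in controls, all overlapping.

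Red blood cell genes were higher on the left relative to the right in the HLHS embryos. Of 18 tested, 11 were higher and 1 lower at the unadjusted p, and the embryonic globins Hbb-y (0.76 ± 0.11) and Hba-x (1.26 ± 0.23) passed as higher. The median was 0.86, with 0.73 on the left and −0.12 on the right, and by litter 1.06, 0.92 and 0.35. Without control replicate 4, 11 were higher and 2 lower. Hba-x was at 27.8, 17.9 and 1.21 CPM in the HLHS left ventricle against 15.2, 6.08, 6.42, 0.0831 and 0.708 CPM in control replicates 1 to 5, and at 11.4, 6.39 and 0.393 CPM against 15.1, 5.92, 4.35, 0.313 and 0.456 CPM on the right. HLHS was above the controls of its litter on the left and mixed on the right. Summed over the list, the HLHS left ventricle had 727 to 972 CPM and the control left ventricle 575 to 871 CPM, with overlap. Reads of globin copies can be split between near-identical genes, and blood left in the chamber was not tested. Leaving the globins out gave 194 calls in the whole comparison. Hbb-y and Hba-x lost their calls without control replicate 1 or HLHS replicate 1, and Hba-x also without control replicate 2 or HLHS replicate 2.

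Among genes of chamber identity and signalling, Bmp10 stood out. Bmp10 is a growth factor of trabecular and atrial muscle. It was at 40.6, 7.03 and 8.56 CPM in the HLHS left ventricle and at 48.9, 34.1, 34.8, 33.3 and 35.0 CPM in control replicates 1 to 5. At E13.5 the HLHS library was within the range of controls, and at E14.5 and E17.5 it was far below. On the right, HLHS had 47.4, 32.8 and 22.3 CPM and controls had 36.3, 23.4, 26.8, 9.63 and 19.5 CPM, each HLHS library above the controls of its litter. Controls had more Bmp10 on the left in 5 of 5 embryos and HLHS embryos less in 3 of 3. Left minus right was −2.03 ± 0.34 (adjusted p = 0.0220, edgeR's quasi-likelihood test), lost without HLHS replicate 2 or 3 and at −2.67 without control replicate 1 or HLHS replicate 1. Of 22 chamber identity factors, 3 were higher and 3 lower at the unadjusted p, and Bmp10 and Irx1 were those that passed.

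The left-right factors themselves were not called. Left minus right was −0.17 ± 0.16 for Hand1, −0.04 ± 0.08 for Hand2 and 0.17 ± 0.16 for Tbx5, and edgeR's quasi-likelihood test gave them adjusted p of 0.786, 0.925 and 0.786. Hand1 was at 37.6, 19.4 and 10.1 CPM in the HLHS left ventricle against 38.3, 22.3, 23.3, 13.9 and 14.2 CPM in control replicates 1 to 5. Sap130, a subunit of the Sin3 histone deacetylase complex, fell on both sides (−0.35 ± 0.08 and −0.42 ± 0.10), and left minus right was 0.07 ± 0.08 (adjusted p = 0.820, edgeR's quasi-likelihood test).

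Stmn4, a stathmin that destabilises microtubules and is known from neurons, gave 2.38 ± 0.44. It was at 36.3, 42.3 and 4.01 CPM in the HLHS left ventricle against 3.65, 2.70, 1.34, 0.789 and 1.53 CPM in control replicates 1 to 5, and at 9.76, 5.44 and 5.93 CPM against 5.22, 3.36, 3.05, 2.00 and 2.97 CPM on the right. HLHS was above controls on both sides. At E17.5 the HLHS embryo had less on the left than on the right, and its difference of −0.56 was within the range of controls, −1.25 to −0.31. Summed over the 11 neural genes tested, Stmn4 itself included, HLHS was above controls on both sides, with 31.7 to 72.2 CPM against 24.7 to 27.6 CPM on the left and 34.7 to 39.5 CPM against 26.5 to 34.5 CPM on the right. Of the neural markers, Th stayed at or below 0.184 CPM in every library, and Tubb3 and Stmn2 reached 5.27 and 7.46 CPM. The part of nerve cells in the value of Stmn4 was not tested. The call of Stmn4 was kept in 2 of the 8 fits, those without control replicate 5 or HLHS replicate 3, and its value was 1.49 without HLHS replicate 2 and 3.14 without HLHS replicate 3.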

How the data were processed

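TruSeq RNA libraries of both ventricles of 8 embryos were compared by phenotype, side and litter as in the labels; replicates are separate embryos. Read counts per gene, as whole numbers, were made and deposited by the authors. Per the submitters' processing notes, the tools included edgeR 3.4.2, HTSeq 0.5.4p5, Picard and TopHat2 2.0.9, and the build was mm9. The annotation and the strand setting were not given in the sources used here. Therefore overlapping, antisense and near-identical genes cannot be told apart, and no coordinates are given for the counted genes. Symbols were found for 32919 of 37991 entries (86.6%), and entries without one held 0.492% of the counts.

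In R 4.3.3 with edgeR 4.0.16, genes passed filterByExpr (minimum count 10, minimum total 15), with TMM factors, glmQLFit and glmQLFTest, Benjamini-Hochberg adjustment over all genes tested and a threshold of 0.05. Left minus right was fitted over 16 libraries with the embryo as a block, a side term per litter and HLHS by side (4 residual degrees of freedom). Each side was fitted on its 8 libraries with litter as a term. The SE given after ± is the size of the log2 effect divided by the square root of the test's F statistic. That statistic uses variances moderated across genes. Differences per embryo are of log2 CPM with a prior count of 2. CPM use TMM factors, except the ranges of marker genes over all libraries and of Xist and Ddx3y, which use total counts. Ventricles are paired by the embryo in the labels. In litters with 2 controls, the difference between these on the left and on the right correlated across genes (r of 0.331 and 0.370), and the deviations of both ventricles of an embryo from their group means did so too (0.410 to 0.756), which stage also shapes. No 2 libraries of a group agreed within sampling noise (lowest chi-square per degree of freedom 7.01 over 26 pairs).

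The members, the 30 gene lists and the rules were chosen with earlier results of these data known. The rule for named genes takes the 20 called genes with the smallest p, and the 12 with the smallest p with a mean log2 CPM reaching 2 and the same sign in 3 litters. It adds the 5 largest differences of each one-sided class and direction, the opposite genes, up to 4 of each list, and Sap130, Hand1, Hand2, Tbx5, Nppa, Nppb, Myh6, Myh7, Tmem26, Tppp and P4ha3. Not all are named (some items are not reported here), and a few other list members are given as examples chosen after their values were seen. Fits were checked on simulated data with 200 genes changed 2-fold, in 1 simulated set per comparison. The changed genes were drawn from those with a mean log2 CPM of at least 2, so recovery below that level was not tested. For left minus right, 98.0% of the changed genes were recovered, but 10.1% of the 218 calls were unchanged genes. That share was above the rate set by the threshold for adjusted p. For the left and the right ventricle alone, 4.76% and 3.88% of the calls were unchanged genes. Alternatives were DESeq2 1.42.0, limma 3.58.1 (voom, and embryo differences), other factors and filters, globins left out, other terms, and each embryo left out.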

Additional observations from a re-analysis of the deposited data

Results flagged for a closer look

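For 50 genes named above the HLHS effect differed between the sides in edgeR's quasi-likelihood test of left minus right (Benjamini-Hochberg adjustment), which is a test of the difference itself. The log2 values of left minus right were as follows. Among muscle and stress genes they were 1.93 for Xirp2, 1.22 for Cnn1, 0.94 for Ankrd23, 0.69 for Mical3, 0.59 for Tcap, 0.56 for Myoz2, 0.53 for Des, 0.51 for Ccn2 and 0.47 for Rcan1. Lower values of heart muscle were −2.17 for Mylk4, −2.03 for Bmp10, −1.15 for Ckmt2, −0.66 for Myh6 and −0.46 for Perm1. Among red cell, hypoxia and granulocyte genes they were 2.69 for S100a8, 1.26 for Hba-x, 1.02 for Hmox1, 0.76 for Hbb-y and 0.68 for Bnip3.

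Matrix genes and their enzymes gave −1.73 for Matn4, −1.72 for Col9a1, −1.30 for Itih5, −1.14 for Thbs3, −0.92 for Fbln2, −0.85 for P4ha3, −0.83 for Sulf1, −0.74 for Dcn, −0.60 for Col3a1 and 1.11 for Adamtsl5. Receptors and surface proteins gave −2.31 for Tmem26, −1.75 for Scara5, −1.31 for Rxfp1, −1.21 for Antxr1, −0.82 for Pdgfra, −0.79 for Msln, −0.79 for Lrrn4 and 0.73 for Gpc1. Transcription factors and the regulator Tceal7 gave −1.09 for Sox9, −0.71 for Tcf21, −0.63 for Prrx1, 0.84 for Irx1, 0.96 for Prrx2 and 0.99 for Tceal7. The others were 2.38 for Stmn4, 1.27 for Bmp2, 1.27 for Krt80, 1.19 for Krt18, 1.08 for Insc, −0.68 for Nrk and −1.01 for Tppp.

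In 2 of the 60 named genes examined, 1 control embryo lay far from the other 4. The left-minus-right difference of Msln was 2.16 in control replicate 1, the control of E13.5, and between −0.08 and 0.25 in the others. That of Lrrn4 was 1.65 in the same embryo and between −0.02 and 0.28 in the others. Chance alone would put about 1 in 20 such groups past this criterion.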

How the results depend on the processing

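Of 158 genes called for left minus right, all kept their direction in each of 18 alternatives that measured them (156 were measured without globins). These alternatives reuse most or all of the same libraries, so a kept direction is no replication. The number of calls moved. It was 269 with DESeq2, 356 with no count filter, 3 with 1 side term in place of 1 per litter, 24 with no replicate block for the embryo, 98 with a sex by side term (chosen after seeing the data), and 36 to 262 when 1 embryo was left out; with other factors, voom, the CPM filter, globins left out and embryo differences it was 141 to 194. With no replicate block for the litter, 1 gene was called on the left and 0 on the right, with 1314 and 1321 at an unadjusted p under 0.05 in edgeR. The right count was 1720 with no count filter and 1662 with all 16 libraries in 1 fit. Right-only genes were 336 with no count filter, and opposite genes 24 with DESeq2 and 35 with no filter. Without 1 embryo, the counts ran from 845 to 2309 on the left, 190 to 1492 on the right, 165 to 679 for left-only, 25 to 330 for right-only and 0 to 12 for opposite genes. The cause of these shifts was not tested; leaving out the only HLHS or the only control embryo of a litter takes that whole litter out of the comparison.

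For 3 genes that were not called the sign turned without 1 embryo: Hand2 was 0.017, 0.019 and 0.034 without control replicate 1, HLHS replicate 1 and HLHS replicate 2 (range −0.166 to 0.034), Nppa was −0.043 and −0.018 without control replicates 3 and 5 (−0.043 to 0.192), and Nppb was −0.017 without HLHS replicate 2 (−0.017 to 0.407). List medians of the hypoxia, sarcomere, stress, matrix, cartilage, cushion, epicardial, macrophage and red cell lists kept their sign in all 18. By litter, however, the epicardial median was negative at E13.5 and E14.5 and 0.11 at E17.5. Of 50 named called genes, 17 kept their call in all 8 fits without 1 embryo. With 4 residual degrees of freedom, small differences between the sides could not be told from none, and 14 of the called genes had an average log2 CPM under 2.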
